A study of Mus musculus with 18 samples.

Results

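The smooth-muscle contractile genes of myofibroblasts were followed across 2 series of mouse embryonic fibroblast libraries. They form a fixed list of 10 genes, Acta2, Tagln, Cnn1, Myh11, Myl9, Tpm1, Tpm2, Actg2, Lmod1 and Des. The list was chosen by name, with earlier results of these data known. All 10 were found among the 55401 gene identifiers of the count table, and all 10 had enough reads to be tested in every comparison. The libraries came from primary mouse embryonic fibroblasts (MEFs), a mixed culture of mesenchymal cells grown from embryos freed of head and viscera, transduced with a retrovirus that carried either no insert (empty vector, EV) or a constitutively active HRAS oncogene (RAS), then drug-selected in bulk. The S6K1 series held S6K1 WT EV, S6K1 WT RAS and S6K1 KO RAS, where the KO lacks Rps6kb1, the gene of S6 kinase 1, and WT and KO embryos were littermates. The S6K1/S6K2 series held S6K1/S6K2 WT EV, S6K1/S6K2 WT RAS and S6K1/S6K2 DKO RAS, where the DKO lacks Rps6kb1 and Rps6kb2, and its WT controls were bred from earlier wild-type mothers and not from the same litters. Each of the 6 groups had 3 libraries, numbered by MEF line, so that WT EV and WT RAS of the same number were made from the same line. Every knockout library carried RAS, so kinase loss was compared under RAS alone, and the WT RAS libraries serve both as the treated group against EV and as the control of the knockouts.

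Smooth-muscle cells and myofibroblasts shorten by sliding a myosin of their own type along bundles of smooth-muscle actin, and the same proteins are laid down in stress fibres when a fibroblast becomes a myofibroblast. Most of these genes are switched on by serum response factor (SRF), which binds a short A/T-rich element called the CArG box together with its actin-sensing partners, the myocardin-related transcription factors. TGF-beta is the best known inducer of the programme, Acta2 is its customary marker, and MEF cultures are known to make these transcripts without being smooth muscle.

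Library totals ran from 8319445 to 14402442 counts. Levels are given as CPM, a gene's count scaled to a common library size with TMM factors, and a count of 3, used as the detection floor, was worth 0.361 CPM in the shallowest library and 0.208 CPM in the deepest. The lowest count of any member in any library was 23, for Myh11, so depth did not limit detection. Rps6kb1 lay at 23.6, 31.3 and 37.0 CPM in S6K1 KO RAS against 61.6 to 74.6 CPM in S6K1 WT RAS. Rps6kb2 lay at 2.68 to 3.04 CPM in S6K1/S6K2 DKO RAS against 24.1 to 28.9 CPM in the matching WT RAS, where Rps6kb1 lay at 34.5 to 39.7 CPM against 75.5 to 83.7 CPM. Hras was 1.90-fold and 1.68-fold higher in WT RAS than in WT EV of the 2 series, so no library went against its label. Fibroblast markers (Pdgfra, Col1a1, Col1a2, Vim, Dcn, Thy1) summed to between 11376 and 34996 CPM in every library. Muscle identity was not seen: the myogenic factors Myod1 and Myf5 had no read in any library, 7 of 12 skeletal and 4 of 7 cardiac markers never passed 3 counts, and the cardiac factor Nkx2-5 had none. Markers of mural cells (pericytes and vascular smooth muscle, none of them on the list) were present at a summed 81.7 to 395 CPM, so a minority of such cells could not be told apart from fibroblasts that use these genes.

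One library stood apart for these genes. S6K1/S6K2 WT EV replicate 3 had the highest level of the 3 EV libraries of its series in 10 of 10 members, against 34% of all genes tested, and it exceeded the other EV libraries at least 2-fold in 8 of 10, against 2.75% of all genes. Of the lists read below, it was also the highest for 17 of 20 SRF targets of the cytoskeleton and 15 of 20 contractile partners. So it was for 4 of 4 mural markers tested. It was at least 2-fold higher for 2, 4 and 2 of these. For cytoskeletal paralogs it was the highest in 7 of 17, and for SRF regulators in 4 of 12. The ratio to the next EV library was 6.80 for Actg2, 6.07 for Myh11, 3.21 for Cnn1 and 3.01 for Des, and it was smallest for Tpm1 at 1.34. In the same EV libraries 1, 2 and 3, the mural marker sum was 81.7, 213 and 316 CPM, the skeletal marker sum 5.33, 9.02 and 25.3 CPM, the macrophage marker sum 310, 28.0 and 40.8 CPM, and the fibroblast marker sum 34996, 29352 and 24228 CPM. The members themselves summed to 3051, 3582 and 7749 CPM there. The mural and skeletal sums rose in the same order as the members, as did the epithelial sum, from 0.611 to 3.85 CPM. The macrophage, fibroblast, cardiac and endothelial sums did not. Acta1 held most of the mean skeletal sum in this group, and how its reads were split from those of Acta2 is uncertain. The part of these lists in the result was not tested. The median coefficient of variation over the 10 genes was 72.2% in this EV group, compared with 13.5% to 33.4% in the other 5 groups, so every comparison that uses this EV group had wide errors. Each series was fitted with a spread per gene shared by its 9 libraries. The spread of this EV group therefore also enters the SE of the comparison of DKO with WT under RAS. For Acta2 the SE was 0.48 in both comparisons of the S6K1/S6K2 series.

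The members are scattered over the genome. By RefSeq positions on GRCm38.p6, Acta2 (ENSMUSG00000035783.9) lies at chr19:34240336-34255585 on the minus strand, Actg2 (ENSMUSG00000059430.14) at chr6:83512909-83536251 on the minus strand, Myh11 (ENSMUSG00000018830.10) at chr16:14194527-14292188 on the minus strand and Myl9 (ENSMUSG00000067818.6) at chr2:156775408-156781657 on the plus strand. Cnn1 (ENSMUSG00000001349.5) lies at chr9:22099221-22109221 on the plus strand, and Tagln (ENSMUSG00000032085.5) and Tpm1 (ENSMUSG00000032366.15) on the same chromosome, on the minus strand, at chr9:45929628-45936058 and chr9:67022590-67049672. Tpm2 (ENSMUSG00000028464.16) lies at chr4:43513726-43523583 on the minus strand, and Lmod1 (ENSMUSG00000048096.7) and Des (ENSMUSG00000026208.9) lie far apart on the plus strand of chromosome 1, at chr1:135324813-135368065 and chr1:75360292-75368579. Tagln overlaps the protein-coding gene Pcsk7 by 2480 bases and Actg2 overlaps a non-coding gene by 4499 bases, so reads in those stretches may have been shared or dropped. The coding sequences of Acta2, Actg2, Acta1 and Actc1 are nearly identical, so how short reads were split between the actins is uncertain.

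A promoter sequence was matched for 7 of the 10 members, and those of Acta2, Myl9 and Tpm1 are shown because Acta2 and Myl9 hold all the SRF-type elements found and because Tpm1 was the member that rose. The windows of Cnn1 and Lmod1, which fell under RAS in the S6K1 series as Acta2 and Myl9 did, held 0 such elements, as did those of Tpm1, Tpm2 and Des. Each run is the 250 bases before the RefSeq start site on GRCm38.p6, 5′ to 3′ on the strand of the gene, at chr19:34255374-34255623 (minus) for Acta2, chr2:156775214-156775463 (plus) for Myl9 and chr9:67049214-67049463 (minus) for Tpm1, and capitals mark CArG boxes, near-CArG boxes and M-CAT elements. For all 3 this start lies inside the outer end of the gene given above, so each run overlaps the annotated gene.
Acta2 promoter: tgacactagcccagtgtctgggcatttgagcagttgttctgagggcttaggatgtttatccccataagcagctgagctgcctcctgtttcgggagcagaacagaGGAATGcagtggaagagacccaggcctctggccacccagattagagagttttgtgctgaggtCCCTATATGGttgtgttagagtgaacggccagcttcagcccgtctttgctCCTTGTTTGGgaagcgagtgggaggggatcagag
Myl9 promoter: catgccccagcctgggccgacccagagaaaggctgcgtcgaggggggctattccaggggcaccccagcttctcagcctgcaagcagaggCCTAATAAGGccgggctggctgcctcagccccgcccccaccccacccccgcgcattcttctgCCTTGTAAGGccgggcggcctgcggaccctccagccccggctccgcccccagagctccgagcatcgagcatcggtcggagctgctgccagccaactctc
Tpm1 promoter: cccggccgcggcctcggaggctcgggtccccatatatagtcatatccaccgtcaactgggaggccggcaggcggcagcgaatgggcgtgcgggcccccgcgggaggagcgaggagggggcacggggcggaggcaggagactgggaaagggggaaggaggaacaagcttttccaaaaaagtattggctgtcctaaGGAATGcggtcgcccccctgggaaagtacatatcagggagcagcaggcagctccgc

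Motifs were searched on both strands of windows that ran from 250 bases before to 50 bases after each start site. A CArG box (a run of A or T bases between a pair of C and a pair of G) was found in 1 of the 7, Myl9, 161 bases before its start, and in 1.63% of 32851 promoters. The same box with a single inner G or C was found in Acta2, at 84 and 34 bases before the start, and in Myl9 at 99 bases, and in 8.5% of all promoters. The M-CAT element CATTCC, bound by TEAD factors and read on the strand shown as GGAATG, was found in Acta2, Lmod1 and Tpm1 at 146, 130 and 56 bases before the start and in 14.7% of all promoters. The SMAD-type letters CAGAC were found in Acta2, Cnn1 and Des and in 49.6% of promoters, whereas the AP-1 site TGANTCA (7.81% of promoters) and TATAAA (13.6%) were found in 0 of the 7. The motifs did not overlap one another, and a match describes letters in a window and not a bound site.

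Per exon length, the actin and its bundle partners stood well above the markers of mature smooth muscle. Levels between genes are compared as CPM per kilobase of exon (RPKM), and in S6K1 WT EV they ran from 2249 ± 341 RPKM (SD, n = 3) for Acta2 and 1135 ± 268 for Tagln, the SRF target transgelin, through 408 ± 50.2 for Myl9 and 367 ± 38.8 for Tpm1, to 185 ± 25.5 for Tpm2. Actg2 followed with 82.4 ± 21.0 RPKM, then Cnn1 with 57.9 ± 8.87 and Lmod1 with 30.6 ± 4.67. The heavy chain Myh11, the most restricted marker of differentiated smooth muscle, had 9.18 ± 3.46 RPKM and Des 5.52 ± 1.03. Neighbours whose libraries overlapped in this group were Myl9 and Tpm1, Actg2 and Cnn1, and Myh11 and Des. In S6K1 WT RAS the mean of Actg2 stood below those of Cnn1 and Lmod1, but its libraries overlapped those of both. Des stood above Myh11, and Tpm1 above Myl9 at 499 ± 39.9 against 233 ± 17.9 RPKM, both without overlap. Acta2 (1244 ± 108) and Tagln (1039 ± 113) now overlapped. Acta2 was first and Tagln second in all 6 groups, and Myh11 was last in all groups but S6K1/S6K2 WT EV and S6K1 WT EV, where Des was.

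**Figure D1:**
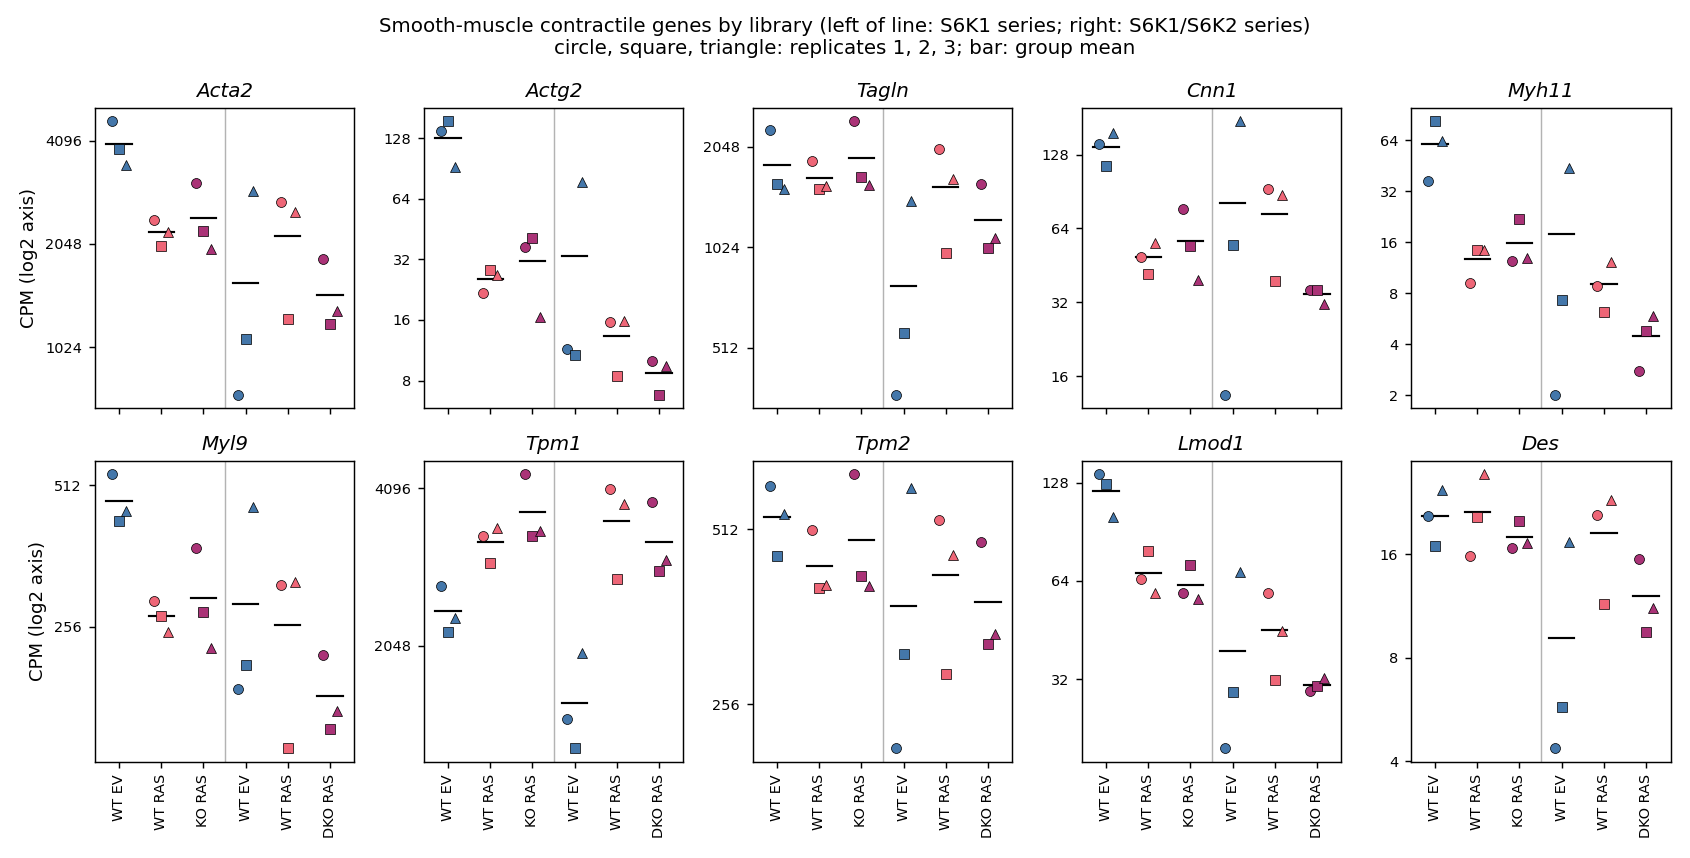
CPM on a log2 axis for each of the 10 contractile genes in the 18 libraries, with the S6K1 series left and the S6K1/S6K2 series right of the line, a symbol for each replicate number and a bar for each group mean. In the S6K1 series the WT RAS points of Actg2, Myh11, Cnn1, Acta2, Lmod1 and Myl9 all lie below the WT EV points, whereas in the S6K1/S6K2 series EV replicate 3 (triangle) lies above the other EV libraries in all 10 panels.

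The first comparison asked what RAS did to the contractile genes in wild-type MEFs of the S6K1 series. Of the 10 genes, 6 fell (Actg2, Myh11, Cnn1, Acta2, Lmod1 and Myl9) and 0 rose by edgeR's quasi-likelihood test at an adjusted p of 0.05, whereas 6.09% of all 14036 genes tested were lower and 7.15% higher (13.2% in either direction). The median log2 fold change over the list was -0.82, against 0.00 over all genes. The 6 that fell were also the 6 whose groups did not overlap downward (15% of all genes), and Tpm1 alone did not overlap upward (15.9% of all genes). These are bulk libraries, in which fewer cells of a type and less RNA per cell cannot be told apart.

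The 2 smooth-muscle actins both fell, by very different amounts. Acta2, the actin of vascular smooth muscle and of myofibroblast stress fibres, had 4666, 3882 and 3470 CPM in WT EV and 2405, 2021 and 2220 CPM in WT RAS replicates 1, 2 and 3. Every RAS library lay below every EV library, a 1.81-fold fall (log2 fold change -0.85, SE 0.19, adjusted p = 0.0183 by edgeR). Actg2, the enteric gamma actin of gut and bladder muscle, went from 139, 156 and 92.2 CPM to 21.7, 28.3 and 26.9 CPM. This 5.02-fold fall was the largest of the list (log2 fold change -2.33, SE 0.33, adjusted p = 0.00198 by edgeR). With the counts of Acta2, Actg2, Acta1 and Actc1 added into a single actin feature, the fall was -0.82 on the log2 scale (adjusted p = 0.0252 by edgeR).

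The motor fell as well. Myh11, the smooth-muscle myosin heavy chain, had 36.9, 82.6 and 63.1 CPM in WT EV and 9.22, 14.4 and 14.5 CPM in WT RAS, a 4.79-fold fall without overlap (log2 fold change -2.26, SE 0.34, adjusted p = 0.00285 by edgeR). Myl9, the regulatory light chain whose phosphorylation starts contraction, went from 540, 430 and 451 CPM to 291, 270 and 249 CPM (log2 fold change -0.81, SE 0.18, adjusted p = 0.0185 by edgeR). Mylk, the kinase that phosphorylates this light chain, is not on the list and was chosen after its values were seen; it fell by 2.83 on the log2 scale (adjusted p = 0.00351 by edgeR).

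Among the proteins that sit on the actin filament, calponin fell and transgelin did not pass the test. Cnn1, an inhibitor of the myosin ATPase, had 141, 115 and 156 CPM in WT EV and 49.0, 41.6 and 56.1 CPM in WT RAS, and its 2.81-fold fall was nearly equal in the 3 lines (log2 ratios -1.52, -1.46 and -1.48). Its fitted log2 fold change was -1.49 (SE 0.24, adjusted p = 0.00352 by edgeR). Tagln had 2289, 1580 and 1529 CPM against 1855, 1528 and 1562 CPM, so the groups overlapped (log2 fold change -0.13, adjusted p = 0.756 by edgeR, 95% interval -0.61 to 0.36). Lmod1, leiomodin 1, which nucleates actin filaments in smooth muscle, went from 136, 127 and 100.1 CPM to 65.1, 79.0 and 58.7 CPM, a fall without overlap (log2 fold change -0.84, SE 0.16, adjusted p = 0.00970 by edgeR).

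The tropomyosins, which wrap the filament and gate myosin, parted ways. Tpm1 had 2660, 2172 and 2309 CPM in WT EV and 3315, 2948 and 3447 CPM in WT RAS, higher in each line and without overlap (log2 fold change 0.44, SE 0.15), with an adjusted p of 0.0940 by edgeR. Tpm2 ranged from 460 to 608 CPM in EV and from 405 to 511 CPM in RAS (log2 fold change -0.28, adjusted p = 0.405 by edgeR). With the line number as a block, both passed: Tpm1 rose (adjusted p = 0.00713) and Tpm2 fell (adjusted p = 0.0476), which made 7 lower and 1 higher of 10 where 36.2% of all genes were called, 18.1% in each direction. Des, desmin, the intermediate filament of muscle, was at 15.8 to 27.3 CPM in RAS and 16.9 to 24.6 CPM in EV (log2 fold change 0.04, 95% interval -0.45 to 0.52).

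The calls of Acta2 and Myl9 were the least firm of the 6. Without S6K1 WT EV replicate 1 the adjusted p was 0.0522 for Acta2 and 0.0513 for Myl9, without S6K1 WT RAS replicate 2 it was 0.0868 and 0.0752, and without S6K1 WT EV replicate 2 it was 0.0502 for Acta2, all by edgeR, with the directions kept. Actg2, Myh11, Cnn1 and Lmod1 kept their call in all 6 fits that left out a library. Macrophage markers summed to 129 to 539 CPM in these EV libraries and 122 to 521 CPM in the RAS libraries, and fibroblast markers fell from between 26147 and 28973 CPM to between 13309 and 14620 CPM. Mural markers summed to 283 to 349 CPM in EV and 168 to 326 CPM in RAS. Of the 5 tested, 4 were lower under RAS and 1 higher. The threshold was passed by 2 lower and 1 higher, against 6.09% and 7.15% of all genes. From EV to RAS the mean of Mcam went from 159 to 106 CPM and that of Notch3 from 65.0 to 39.6 CPM. Cspg4 went from 84.0 to 16.8 CPM and Rgs5 from 5.26 to 65.3 CPM. Epithelial markers (Epcam, Krt8 and Krt18 among them) summed to 4.67 to 10.1 CPM in EV and 109 to 150 CPM in RAS, and the part of any of these lists in the result was not tested.

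The second comparison asked the same in the wild-type MEFs of the S6K1/S6K2 series, where only Tpm1 passed. Tpm1 rose 2.24-fold from 1483, 1303 and 1982 CPM to 4095, 2744 and 3822 CPM (log2 fold change 1.16, SE 0.23, adjusted p = 0.00651 by edgeR). That was 1 of 10 members called, higher, where 13.5% of 13881 genes were called higher and 12.7% lower (26.3% in all). Tpm1 was also the 1 member of 10 without overlap between the groups, against 42.5% of all genes (20.9% upward). The list's median log2 fold change was 0.20, against -0.02 over all genes. Without S6K1/S6K2 WT EV replicate 3, 5 members rose, namely Tpm1, Tagln, Des, Acta2 and Lmod1, where 29.6% of all genes were called in either direction in that fit.

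The other 9 genes had EV libraries that lay far apart. Acta2 had 743, 1080 and 2915 CPM in WT EV and 2709, 1237 and 2532 CPM in WT RAS, so the EV libraries spanned the RAS libraries. Its log2 fold change of 0.45 had a 95% interval from -0.61 to 1.52 (adjusted p = 0.510 by edgeR), and without EV replicate 3 it was 1.25 (adjusted p = 0.0284). Tagln went from 369, 568 and 1406 CPM to 2015, 980 and 1637 CPM, higher in 3 of 3 lines (log2 fold change 0.98, adjusted p = 0.136; without EV replicate 3, 1.73 and 0.00677). Des went from 4.37, 5.75 and 17.3 CPM to 20.7, 11.4 and 23.0 CPM, again higher in 3 of 3 lines (log2 fold change 1.01, adjusted p = 0.146; without EV replicate 3, 1.87 and 0.00524). These adjusted p-values are from edgeR.

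The more restricted markers took their estimate from EV replicate 3. Actg2 had 11.4, 10.7 and 77.9 CPM in WT EV and 15.6, 8.46 and 15.8 CPM in WT RAS, a log2 fold change of -1.32 (adjusted p = 0.175 by edgeR) that was 0.28 without that library. Myh11 had 2.01, 7.25 and 44.1 CPM against 8.75, 6.19 and 12.2 CPM, -0.97 on the log2 scale with it and 0.98 without. Cnn1 had 13.4, 54.6 and 175 CPM against 92.5, 39.1 and 87.4 CPM, -0.15 with it and 1.12 without, and the sign also turned with the line number as a block (0.14). Lmod1 had 19.7, 29.4 and 68.1 CPM against 58.8, 31.9 and 45.1 CPM, 0.21 with it and 0.90 without (adjusted p = 0.713 and 0.0272 by edgeR). Myl9 ranged from 189 to 460 CPM in EV and 142 to 319 CPM in RAS, and Tpm2 from 215 to 604 CPM and 288 to 531 CPM, with log2 fold changes of -0.15 and 0.18. Mural markers summed to 277, 361 and 395 CPM in WT RAS of lines 1, 2 and 3 and skeletal markers to 212, 70.9 and 80.6 CPM, and both sums rose most over EV in line 1. From WT EV to WT RAS the mean of Rgs5 went from 9.02 to 149 CPM and that of Mcam from 43.0 to 101 CPM. Notch3 went from 63.5 to 70.5 CPM and Cspg4 fell from 86.0 to 23.5 CPM. Acta1 held 118 of the mean 121 CPM of the skeletal sum in WT RAS. Epithelial markers summed to 0.611 to 3.85 CPM in these EV libraries and 79.1 to 120 CPM in the RAS libraries, and fibroblast markers to 24228 to 34996 and 11376 to 15363 CPM, and their part was not tested.

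**Figure D2:**
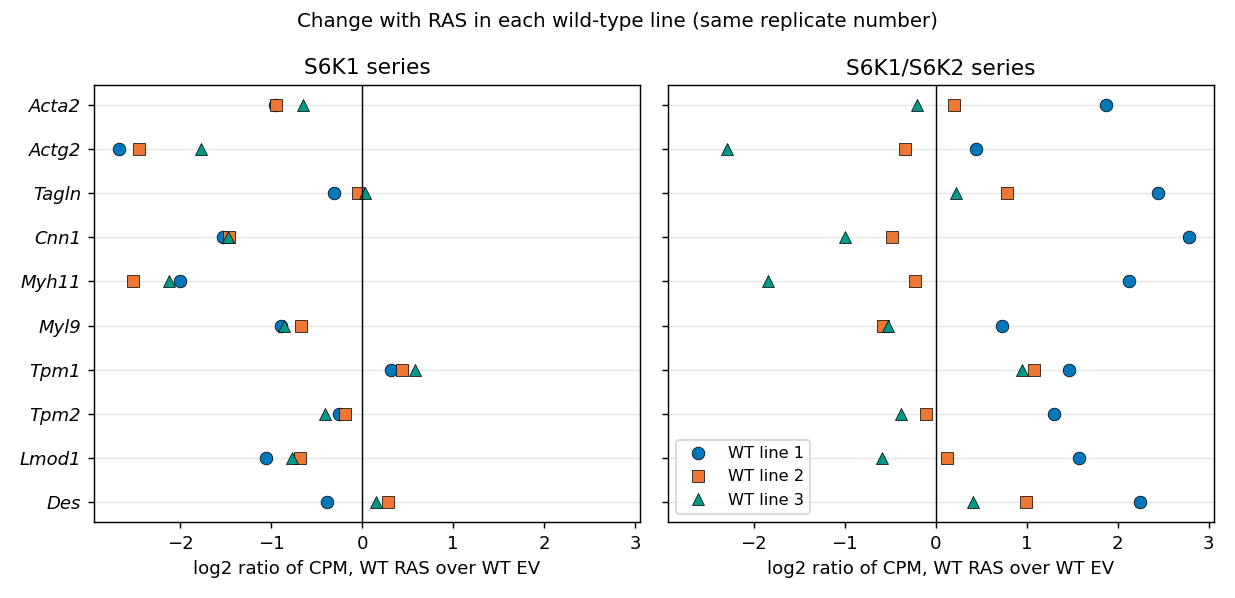
Log2 ratio of CPM, WT RAS over WT EV, for each gene in each of the 3 wild-type lines of the S6K1 series (left) and the S6K1/S6K2 series (right). The 3 lines of the S6K1 series lie close together, with medians of -0.92, -0.68 and -0.71, whereas those of the S6K1/S6K2 series are spread, with medians of 1.72, 0.00 and -0.46.

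Line by line, 9, 8 and 7 of the 10 genes were lower under RAS in lines 1, 2 and 3 of the S6K1 series, and 7 genes were lower in all 3 lines (31.5% of all genes). In the S6K1/S6K2 series line 1 had 10 of 10 higher, line 2 had 5 higher and 5 lower, and line 3 had 7 lower and 3 higher. No member was lower in all 3 lines of that series, and Tpm1, Tagln and Des were higher in all 3 (30.9% of all genes). Across the 2 series Tpm1 was higher under RAS in 6 of 6 lines. The EV levels of lines 1 and 2 of the S6K1/S6K2 series were below those of any S6K1 WT EV library for 10 of 10 members. This count was not made over all genes, and the CPM of the 2 series were scaled with separate TMM factors. Since each line belongs to 1 series, series and line cannot be told apart.

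The difference between the series was tested as an interaction over the 18 libraries. All 10 estimates were positive, meaning a higher response to RAS in the S6K1/S6K2 series, from 0.45 on the log2 scale for Tpm2 to 1.32 for Cnn1. Of all genes 52.8% had an estimate below 0. But 0 of 10 passed by edgeR (lowest adjusted p = 0.335, for Tpm1), as did 0 of 14483 genes (0%). DESeq2 also called 0 of the 10. At an unadjusted p of 0.05, which 12.6% of all genes passed, 3 members were below the line, Acta2 (1.29, 95% interval 0.09 to 2.49), Lmod1 (1.04, 0.06 to 2.01) and Tpm1 (0.71, 0.11 to 1.30). Without S6K1/S6K2 WT EV replicate 3, 7 of 10 passed, with differences from 1.71 for Lmod1 to 3.23 for Myh11 (1.96% of all genes were called in that fit), and with both WT libraries numbered 3 of that series left out, a setting chosen after seeing the data, 2 of 10 did (Actg2 and Lmod1, against 0.636% of all genes).

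**Figure D3:**
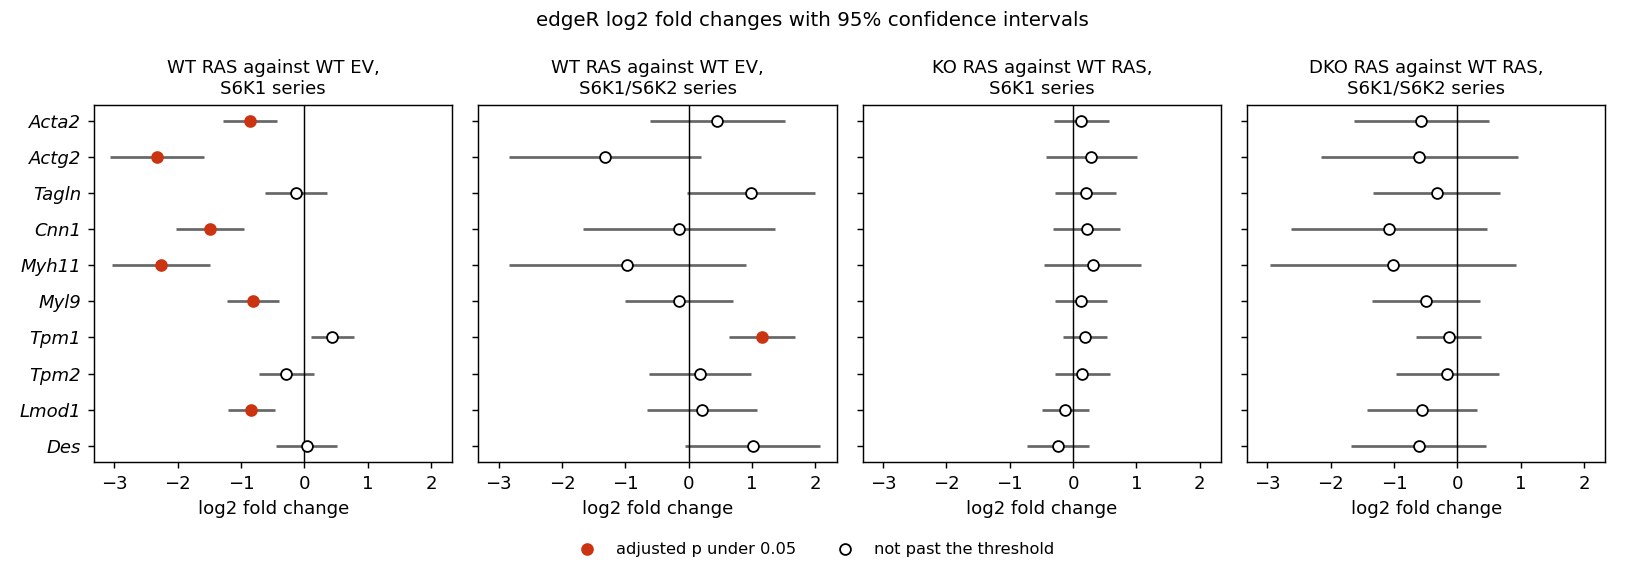
edgeR log2 fold changes with 95% confidence intervals for the 10 genes in the 4 comparisons, filled where the adjusted p is under 0.05. Filled points are 6 genes below 0 for RAS in the S6K1 series and Tpm1 above 0 in the S6K1/S6K2 series, whereas in the comparisons of S6K1 KO and S6K1/S6K2 DKO with WT under RAS no point is filled and every interval includes 0.

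The third comparison asked whether loss of S6K1 altered the genes in RAS-expressing MEFs. None of the 10 passed by edgeR or DESeq2 (0.00712% of 14036 genes were called), and 0 had an unadjusted p below 0.05 (6.86% of all genes did). Acta2 had 3080, 2239 and 1972 CPM in S6K1 KO RAS against 2405, 2021 and 2220 CPM in WT RAS, a log2 fold change of 0.13 with a 95% interval from -0.29 to 0.56. Tagln had 2439, 1662 and 1570 CPM against 1855, 1528 and 1562 CPM (0.20, -0.29 to 0.69) and Tpm1 had 4359, 3320 and 3397 CPM against 3315, 2948 and 3447 CPM (0.19, -0.15 to 0.53). The groups overlapped for all 10 genes (8.02% of all genes did not overlap), estimates ran from -0.24 for Des to 0.31 for Myh11, and the widest interval, that of Myh11, ran from -0.45 to 1.07. Macrophage markers were lower in the KO libraries (41.2 to 129 CPM) than in WT RAS (122 to 521 CPM), and their part was not tested.

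The fourth comparison asked the same for the loss of both kinases. All 10 estimates were below 0 in S6K1/S6K2 DKO RAS, from -0.14 for Tpm1 to -1.08 for Cnn1, where 50.1% of all genes were. The genes were measured in the same libraries, so the 10 signs are not separate results. Yet 0 of 10 passed by edgeR or DESeq2 (0.0216% of 13881 genes were called) and 0 had an unadjusted p below 0.05 (1.29% of all genes did). Cnn1 had 35.8, 36.0 and 31.6 CPM in DKO RAS against 92.5, 39.1 and 87.4 CPM in WT RAS, lower in each DKO library than in every WT library, with a 95% interval from -2.63 to 0.46. Myh11 had 2.77, 4.77 and 5.87 CPM against 8.75, 6.19 and 12.2 CPM, also without overlap (log2 fold change -1.02, 95% interval -2.97 to 0.93). These were 2 of 10 genes without overlap, where 6.07% of all genes did not overlap, 3.05% downward. Acta2 had 1848, 1199 and 1304 CPM against 2709, 1237 and 2532 CPM (-0.57, -1.64 to 0.49). WT RAS replicate 2 was the lowest of its group in 10 of 10 members, a count not made over all genes. The intervals rest on a spread shared with the EV group of the series. The comparison was not refitted without S6K1/S6K2 WT EV replicate 3. Macrophage markers summed to 31.4 to 43.0 CPM in DKO RAS and 41.0 to 147 CPM in WT RAS, and their part was not tested.

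The difference between the 2 losses was negative for 10 of 10 genes, from -0.27 for Tpm2 to -1.30 for Myh11, where it was negative for 48.8% of all genes. It passed for 0 of 10, where 0.0069% of 14483 genes were called, and for 0 at an unadjusted p of 0.05, where 1.23% were. DESeq2 also called 0 of 10. The intervals were wide (Cnn1, -2.98 to 0.44).

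The rest of the contractile apparatus was read from lists of neighbouring genes, with values for the most abundant. Their counts stand beside shares over all genes of 6.09% lower and 7.15% higher in the S6K1 series and 12.7% lower and 13.5% higher in the S6K1/S6K2 series, and with the line block beside 18.1% each way in the S6K1 series. Of 20 tested contractile partners, 3 fell and 0 rose under RAS in the S6K1 series (median -0.29; 9 and 2 with the line block), and 2 fell and 5 rose in the S6K1/S6K2 series (median 0.50). Cald1, caldesmon, an actin-binding brake on myosin, had a log2 fold change of -0.04 in the first and rose by 0.76 in the second (adjusted p = 0.0427 by edgeR). Csrp1, a LIM protein of smooth muscle, had -0.30 and 0.36, neither past the threshold, and Fhl1, another LIM protein, had -0.40 and rose by 1.39 in the second (adjusted p = 0.00743). Pdlim5, a Z-line adaptor, had -0.11 and rose by 0.73 in the second (adjusted p = 0.0388). These adjusted p-values are from edgeR.

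Relatives of the members, most of them non-muscle forms, had medians above 0 in both series. Of the cytoskeletal paralogs 1 rose and 1 fell of 16 tested in the S6K1 series (median 0.31), where the line block gave 8 and 2, and 4 rose and 3 fell of 17 in the S6K1/S6K2 series (median 0.52). Actb, cytoplasmic beta actin, had a log2 fold change of 0.51 in the first (adjusted p = 0.183) and rose by 0.98 in the second (adjusted p = 0.00841). Myh9, the non-muscle myosin heavy chain, had 0.24 and rose by 1.60 in the second (adjusted p = 0.00603), and Tpm4, a non-muscle tropomyosin, had 0.33 and rose by 0.93 (adjusted p = 0.00967), all by edgeR. Vim, vimentin, the intermediate filament of fibroblasts, had 0.39 and 0.23, neither past the threshold. Acta1, skeletal alpha actin, was chosen after its values were seen: it rose by 1.57 and 3.49 on the log2 scale in the 2 series (adjusted p = 0.0213 and 0.00935 by edgeR), whereas Actg2 fell in the first.

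Regulators of the programme were counted in the same way. Of 12 tested SRF regulators 2 rose in the S6K1 series, Elk3, an ETS factor that binds beside SRF, and Klf5, and 4 rose in the S6K1/S6K2 series, the same 2 with Mrtfb and Tead1, and 0 fell in either, whereas with the line block 3 rose and 1 fell in the S6K1 series. Elk3 rose by 0.63 and 0.86 on the log2 scale (adjusted p = 0.00522 and 0.00296 by edgeR). The cofactors Mrtfa and Mrtfb had log2 fold changes of -0.08 and -0.14 in the first, and in the second Mrtfa had 0.30 while Mrtfb rose by 0.64 (adjusted p = 0.0446 by edgeR). Klf5, a growth-associated factor of smooth muscle that was chosen after its values were seen, rose by 1.51 in the second (adjusted p = 0.0339 by edgeR). Of 20 SRF targets of the cytoskeleton 1 fell in the S6K1 series and 9 rose in the S6K1/S6K2 series, with medians of 0.15 and 0.72, and with the line block 7 rose and 3 fell in the S6K1 series. Actn1, which cross-links actin, had 0.05 in the first and rose by 0.81 in the second (adjusted p = 0.0409 by edgeR), and Flna, another cross-linker, had -0.51 and 0.56, neither past the threshold.

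TGF-beta pathway genes and the matrix that myofibroblasts secrete were read in the same way. Of 20 pathway genes 1 rose and 5 fell in the S6K1 series and 4 rose and 4 fell in the S6K1/S6K2 series, and the line block gave 3 and 6 in the first. Ccn2, connective tissue growth factor, had log2 fold changes of -0.03 and 1.27, Ltbp1, which holds latent TGF-beta in the matrix, had 0.21 and 0.30, and the receptor Tgfbr2 had 0.16 and 0.03, none of them past the threshold. Of 15 matrix genes 9 fell in each series (11 in the S6K1 series with the line block), with medians of -1.14 and -1.16. In the S6K1/S6K2 series 1, Timp1, rose, but with the line block 0 did. That block fit called 3980 of 13881 genes in either direction. Col1a1, a chain of type I collagen, fell by 1.90 and 2.06 on the log2 scale. Sparc, a collagen-binding matrix protein, fell by 0.49 and 0.76, Thbs1, thrombospondin 1, which can activate latent TGF-beta, fell by 1.03 in the first and had 0.40 in the second, and Fn1, fibronectin, had -0.47 and 0.69, neither past the threshold. In the comparisons of KO and DKO with WT under RAS, 0 genes of these 6 lists passed. With the line block 1 did, Coro1a, an actin regulator of blood cells on the SRF target list, whose log2 fold change in S6K1 KO RAS was -2.25 in that fit. The summed macrophage markers were lower in the same KO libraries, as given above, and their part was not tested.

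**Figure D4:**
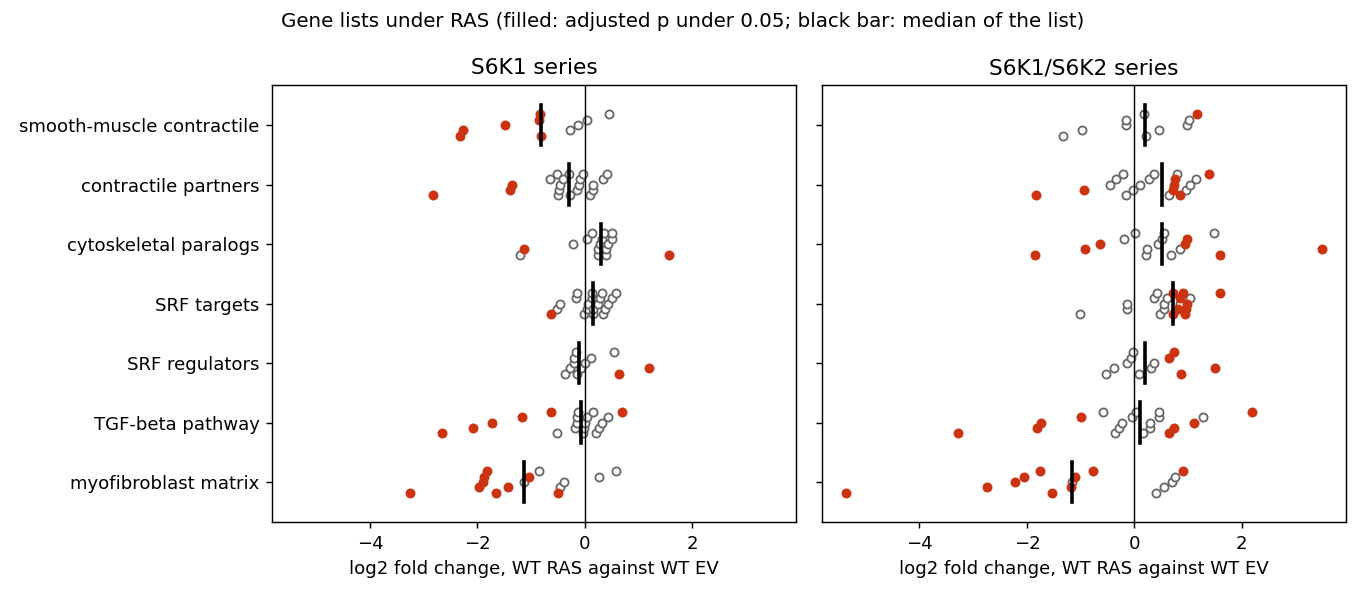
Log2 fold change of WT RAS against WT EV for the contractile genes and 6 related lists in the S6K1 series (left) and the S6K1/S6K2 series (right), with filled points at an adjusted p under 0.05 and a black bar at the median of each list. The contractile genes have medians of -0.82 and 0.20, the matrix genes -1.14 and -1.16, and the SRF targets 0.15 and 0.72.

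The genes whose pattern was most like that of Acta2 were sought by the root mean square difference in log2 CPM, centred in each series, over the 18 libraries and 13549 genes. Outside the list the nearest were Fam20a at 0.25, Nexn (nexilin, an actin-binding protein) at 0.27, Csrp1 at 0.29, C1ql3 at 0.31 and Palld (palladin, a stress-fibre protein) at 0.32, where the median gene was at 0.63. On the list, Lmod1 (0.26), Tpm2 (0.27), Myl9 (0.27), Tagln (0.35) and Des (0.39) were near Acta2, Cnn1 (0.45) and Tpm1 (0.60) further, and Actg2 (0.73) and Myh11 (0.79) lay beyond the median gene. The libraries share lines and depth, so these distances describe the table and carry no test.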

How the data were processed

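Poly(A) RNA of 18 MEF libraries was sequenced by the authors as single-end 50-base reads, and raw counts per gene were deposited. The submitters' processing notes name CASAVA, STAR 2.7.1a, DESeq2 1.28.1 and mm10, whereas the methods of the study name TopHat, HTSeq and mm9. These sources differ, and the strand setting of the counting is not given in the sources used here. Reads that map to several near-identical genes may have been dropped or split. CPM and RPKM were computed here from the counts, with exon lengths from an NCBIM37 annotation.

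Each series of 9 libraries was fitted by group in edgeR 4.0.16 (R 4.3.3) with filterByExpr (minimum count 10), TMM scaling and the quasi-likelihood test, two-sided, with Benjamini-Hochberg adjustment over all genes tested and a threshold of 0.05. Differences between the series were contrasts in a fit of all 18 libraries. Standard errors and 95% intervals were derived from the fold change and the F statistic. Log2 ratios by line used a pseudocount of 0.01 CPM, and the comparison of patterns used 0.5 CPM. DESeq2 1.42.0, other scalings and filters, a replicate block, summed actins and leaving out each library were the alternatives. The fits were tested on simulated data.

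Lines are numbered in the sample titles. Same-numbered libraries deviated together in WT EV and WT RAS (r = 0.750, 0.479 and 0.682 in the S6K1 series, 0.371, 0.284 and 0.329 in the S6K1/S6K2 series) and in S6K1 KO and WT RAS (0.747, 0.436 and 0.638). In DKO and WT RAS numbers 1 and 2 did so (0.260 and 0.487) but number 3 did not (-0.049). The numbers were taken to pair the first 3 comparisons only. Separate lines are the replicates.

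The members and lists were chosen with earlier results of these data known. All 10 members are named. Of each other list at most 4 genes are named, those with the highest mean CPM among genes tested in both series. The exceptions are cell-type markers and genes named for their result, which are Mylk, Acta1, Klf5, Timp1 and Coro1a. Symbols were matched for 32589 identifiers, which held 99.1% of counts. Promoter sequences and gene positions are from RefSeq, GRCm38.p6.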

Additional observations from a re-analysis of the deposited data

How the results depend on the processing

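Under RAS in the S6K1 series 5 to 8 members passed in all settings that kept every library (DESeq2 7, replicate block 8, summed actins 5 of 9 features), and 4 to 6 when a library was left out. Of all genes 13.2% were called there in the main fit and 36.2% with the replicate block. In the S6K1/S6K2 series 1 member passed in the main fit and with the replicate block, 4 without a filter on low counts, 3 with both WT libraries numbered 3 left out (added after seeing the data), and 1 to 5 when a library was left out. The main fit called 26.3% of all genes in that series and the replicate block 3980 of 13881. Without WT EV replicate 3, the fit with 5 members, 29.6% of all genes were called. The difference in RAS effect passed for 0 members in the main fit and with the replicate block, for 2 with both of those libraries left out, and for 0 to 7 when a library was left out. For this difference 0.636% of all genes were called with both of those libraries left out. Without S6K1/S6K2 WT EV replicate 3, where 7 members passed, 1.96% were. For the other settings no share over all genes is given, so those member counts cannot be set against one. Both losses and their difference gave 0 members in every setting run, the replicate block included. A library was left out only in comparisons that use its group, so no loss comparison was refitted without an EV library. The sign of Cnn1 in the S6K1/S6K2 series turned with the replicate block (0.14), and with both libraries numbered 3 left out the log2 fold changes there were 0.96 for Cnn1, 0.71 for Myh11, 0.19 for Myl9 and 0.13 for Actg2. The cause was not tested.

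Estimates that changed sign when a library was left out are given as their lowest and highest log2 fold change. Under RAS in the S6K1 series these were Tagln (-0.23 to 0.0744) and Des (-0.19 to 0.21). Under RAS in the S6K1/S6K2 series they were Cnn1 (-0.65 to 1.12), Myh11 (-1.50 to 0.98), Myl9 (-0.38 to 0.37), Actg2 (-1.74 to 0.28), Lmod1 (-0.11 to 0.90) and Tpm2 (-0.10 to 0.71). For S6K1 loss they were Acta2 (-0.0839 to 0.26), Tagln (-0.0396 to 0.32), Cnn1 (-0.0682 to 0.42), Myh11 (-0.0109 to 0.45), Myl9 (-0.10 to 0.27) and Tpm2 (-0.10 to 0.26), and for loss of both kinases Tpm2 (-0.37 to 0.0301). With the actins summed, Actg2 had no value of its own. With 3 lines a group, counting error was small beside the spread between lines when all genes were pooled. This was not checked for each member. Lmod1 in S6K1/S6K2 DKO RAS, for one, had counts of 297 to 359 and a coefficient of variation of only 4.87%.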
